A study of Rattus norvegicus with 13 samples.

Results

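The genes described here encode axon guidance ligands and their receptors: semaphorins, neuropilins, plexins, ephrins, Eph receptors, netrins and netrin receptors, slits and Robo receptors, and Nogo with its receptor. They were chosen by gene symbol, as genes with a probe set annotated to a single symbol that starts with Sema, Plxn, Epha, Ephb, Efna, Efnb, Ntn and a digit, Slit, Robo or Unc5, or that is *Nrp1*, *Nrp2*, *Dcc*, *Neo1*, *Rtn4* or *Rtn4r*. The choice was made with earlier results of these data known. The symbol rule gave 63 genes with 109 probe sets, of 14217 genes measured. Of these, 59 genes (103 probe sets) belong to 7 guidance systems, with 28 ligands and 31 receptors. The other 4, *Slitrk1*, *Slitrk3*, *Unc50* and *Unc5cl*, share only the first letters and are given apart.

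Messenger RNA was measured in rat cortical cultures grown in microfluidic platforms, compartmentalised devices with a separate chamber for axons, from which they can be collected without cell bodies. The 13 GeneChip arrays held regenerating axons (3 arrays, cut on day 11 and regrown for 2 days), neurons taken from the neuronal compartment (3 arrays, uninjured) and uninjured axons (7 arrays from 3 culture batches). All material was collected on day 13, and each array held material pooled from 3 platforms. The labels do not say which uninjured arrays share a batch, and they name no batches for the other groups, so the spread between arrays may in part be technical.

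The deposited values are ratios, with no signal level. A gene's ratio is the geometric mean over its probe sets. What the regenerating and neuron arrays were divided by is not given in the sources used here; the uninjured axon level was assumed, and all directions against uninjured axons depend on that assumption. Uninjured array 7 is exactly 1 throughout and holds no measurement, so 6 uninjured arrays give the spread, each relative to the median of its own set of 3. Differences are given on the log2 scale with the standard error (SE) of the limma fit, which against uninjured axons includes an assigned error of the reference equal to that of 1 array. A gene passed the test at a Benjamini-Hochberg adjusted p under 0.05 over all 14217 genes. The number of arrays limits the precision. In such bulk material, fewer cells or axons of a type and less RNA per cell cannot be told apart.

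As background, guidance proteins steer growing axons. Secreted semaphorins bind neuropilins, which signal through plexins, while membrane semaphorins bind plexins directly. Ephrins and Eph receptors signal at cell contacts, in both directions. Netrins attract through DCC and repel through UNC5 receptors, and slits repel through Robo receptors. Nogo, a membrane protein known from myelin, inhibits neurite growth through the Nogo receptor, and many of these cues are also known to limit regrowth after injury.

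The label "neurons" was compared with cell type markers. Of 10 neuron markers, 9 were higher in neurons than in uninjured axons (median log2 difference of the list 3.29), and so were 9 of 10 astrocyte markers (median 3.19, range -0.52 to 6.55). None of the 10 microglia markers was higher in neurons and 9 were lower (range -1.43 to -0.71), and 5 of 9 fibroblast and vascular markers were lower. Of 9 oligodendrocyte markers 3 were higher and 1 was lower. No marker of any of these lists passed between regenerating and uninjured axons, but the median of the neuron markers was -0.97 in that comparison (array medians -0.79, -0.67 and -1.29). Among them *Stmn2* had -3.86 ± 1.09 (adjusted p = 0.139) and *Map2* -2.34 ± 0.49 (adjusted p = 0.0689). The median of the microglia markers was 0.35. In the hybridisation controls, which are added to each sample at a set amount, the 3 regenerating arrays had median ratios of 1.14, 1.44 and 1.57 and the 3 neuron arrays 0.276, 0.910 and 0.157, against 0.928 to 1.10 in the 6 uninjured arrays. Regenerating arrays thus lay above and neuron arrays below the uninjured range. The part of cell makeup and of labelled RNA amount in the results below was not tested.

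Guidance genes differed widely between neurons and uninjured axons. *Rtn4*, which encodes Nogo, had the largest excess in neurons, followed by the transmembrane ligand genes *Efnb3* and *Sema6d*, the plexin gene *Plxnc1* and the neuropilin gene *Nrp1*. Of the 63 genes, 23 were higher in neurons (36.5%, against 36.9% of all genes tested) and 9 were lower (14.3%, against 23.0% of all genes). Of the 59 guidance genes, 20 were higher (33.9%) and 8 lower (13.6%). The share higher in neurons was thus near that of all genes. The difference reached at least 2-fold in 11 of the 20 and in 3 of the 8, and the matching share of all genes is not given here. The median difference over the 59 genes was 0.30, against 0.22 over all genes. With each array shifted so that all genes centre on 0, the split became 16 higher (27.1%, against 32.5% of all genes) and 14 lower (23.7%, against 30.0% of all genes), without a change of sign in any call, so small differences of either sign depend on the scale.

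Receptors and ligands were both among the genes that passed. Of 31 receptor genes, 12 were higher in neurons and 6 lower, and of 28 ligand genes 8 were higher and 2 lower. In 30 of the 59 genes all 3 neuron arrays lay above all 6 measured uninjured arrays (50.8%, against 41.8% of all genes), and in 14 they lay below them (23.7%, against 30.3%). Neuron array 2 was the lowest of the 3 neuron arrays in 17 of the 20 genes that were higher in neurons, and array 3 the highest in 17. This order is not particular to guidance genes. The log2 medians over all genes were 0.23, 0.11 and 0.33 in neuron arrays 1, 2 and 3. Without neuron array 1, 5 of the 63 genes rather than 9 passed as lower in neurons. *Ephb4* (adjusted p = 0.0616), *Unc5b* (0.0588), *Ntn5* (0.0947) and *Robo3* (0.0572) then missed the threshold. The difference in each of these 4 kept its sign. All 8 guidance genes that were lower in neurons differed by no more than the microglia marker with the largest difference (-1.43). Of these genes, *Efna1* (-0.67) and *Unc5b* (-0.59) lay nearer 0 than any of the 10 microglia markers. A link between these genes and microglia was not tested.

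**Figure D1:**
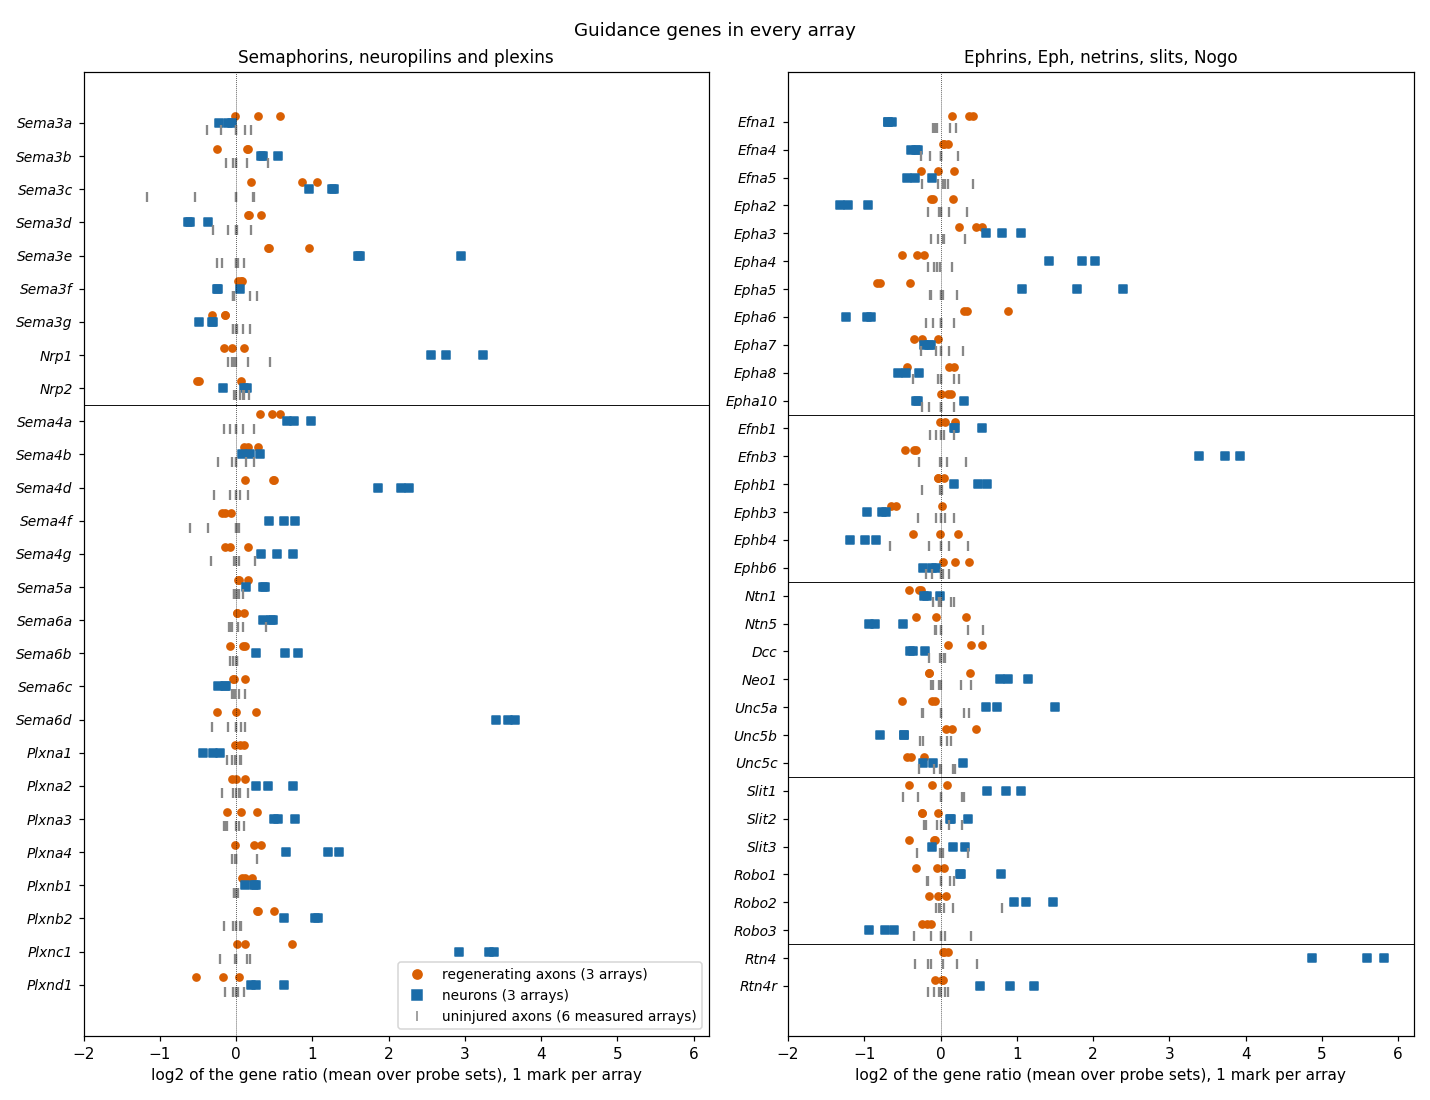
Log2 of the ratio of each of 59 guidance genes (rows, grouped by system) in every array, with regenerating axons as circles, neurons as squares and the 6 measured uninjured axon arrays as ticks. The neuron squares of *Rtn4* lie furthest to the right, at ratios of 29.2 to 56.4, while the regenerating circles stay near the uninjured ticks in most rows.

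Among class 3 semaphorins, the secreted ligands, and neuropilins, 2 of 9 genes were higher in neurons and none passed as lower. With each array shifted to a median of 0, *Sema3d* and *Sema3g* passed as lower. *Nrp1* encodes neuropilin 1, the receptor for SEMA3A. Its ratio was 0.960, 1.07 and 0.899 in regenerating axons and 6.75, 5.86 and 9.47 in neurons, against 0.933 to 1.36 (median 0.990) in uninjured axons. All 3 neuron arrays were far above the other arrays, and regenerating and uninjured axons overlapped. The regenerating value averages opposite probe sets, at 0.744, 0.814 and 0.739 (log2 -0.39 ± 0.32) and at 1.24, 1.42 and 1.09 (0.31 ± 0.19). Neither probe set passed against uninjured axons. *Nrp1* was 7.21-fold higher in neurons (log2 2.85 ± 0.29, SE, n = 3 arrays, adjusted p = 5.60e-05, limma). *Nrp2*, which encodes the partner receptor of SEMA3F, read 0.715, 0.700 and 1.04 in regenerating axons and 1.11, 0.886 and 1.07 in neurons, against 0.980 to 1.12 (median 1.05) in uninjured axons. Its difference between neurons and uninjured axons was 0.03 ± 0.18 (adjusted p = 0.911), so the neuropilin genes lay far apart.

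*Sema3e*, whose product binds plexin D1, was the class 3 ligand gene that passed. It read 1.34, 1.33 and 1.94 in regenerating axons and 3.07, 7.73 and 3.02 in neurons, against 0.843 to 1.07 (median 1.0) in uninjured axons. Neuron array 2 was the high one here, unlike in most of the genes that passed. The difference between neurons and uninjured axons was 2.06 ± 0.45 (4.16-fold, adjusted p = 0.00366). *Sema3c* read 1.15, 1.81 and 2.09 in regenerating axons and 2.42, 1.93 and 2.39 in neurons, against 0.446 to 1.18 (median 1.0) in uninjured axons. Its uninjured spread was the widest of the system, and the difference of 1.16 ± 0.48 for neurons missed the threshold (adjusted p = 0.0588). *Sema3a*, the classical collapse-inducing ligand, read 1.49, 0.986 and 1.22 in regenerating axons and 0.960, 0.929 and 0.853 in neurons, against 0.770 to 1.15 (median 1.0) in uninjured axons. Both groups overlapped the uninjured arrays, and the regenerating arrays all lay above the neuron arrays. The differences from uninjured axons were 0.28 ± 0.27 for regenerating axons (adjusted p = 0.792) and -0.13 ± 0.23 for neurons (adjusted p = 0.640).

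The lowest class 3 ligands were *Sema3d* and *Sema3g*. *Sema3d* read 1.25, 1.12 and 1.12 in regenerating axons and 0.647, 0.773 and 0.660 in neurons, against 0.811 to 1.15 (median 1.0) in uninjured axons. The neuron arrays lay below all uninjured arrays, but the difference of -0.53 ± 0.22 had an adjusted p of 0.0555. *Sema3g* read 0.908, 0.904 and 0.806 in regenerating axons and 0.814, 0.803 and 0.715 in neurons, against 0.969 to 1.13 (median 1.01) in uninjured axons. Here both groups lay below the uninjured arrays, with differences of -0.20 ± 0.15 (adjusted p = 0.711) and -0.37 ± 0.17 (adjusted p = 0.0856). *Sema3b* (0.41 ± 0.22) and *Sema3f* (-0.15 ± 0.21) did not pass in neurons either.

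The membrane semaphorins and plexins formed the largest system, with 8 of 18 genes higher in neurons and none lower (median 0.55). Of all genes, 36.9% were higher and 23.0% lower. With each array shifted to a median of 0, 6 genes of the system passed as higher and 1, *Plxna1*, as lower. *Sema6d*, a transmembrane ligand of plexin A1, read 1.0, 1.20 and 0.841 in regenerating axons and 12.6, 10.6 and 11.9 in neurons, against 0.804 to 1.08 (median 1.0) in uninjured axons. The neuron arrays agreed closely and stood far above the others, 11.6-fold over uninjured axons (3.54 ± 0.21, adjusted p = 4.84e-06). *Plxnc1*, the receptor gene for semaphorin 7A, read 1.0, 1.08 and 1.66 in regenerating axons and 9.92, 7.56 and 10.4 in neurons, against 0.867 to 1.13 (median 0.997) in uninjured axons. It was 9.21-fold higher in neurons (3.20 ± 0.23, adjusted p = 9.25e-06), while regenerating array 3 alone lay above the uninjured range.

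*Sema6d* and *Sema3d* are the semaphorin genes furthest apart between neurons and uninjured axons with an entry in the RefSeq promoter table (GRCr8), and their promoters are shown for that contrast. Each covers 250 bases before and 50 bases after the annotated gene start, written 5′ to 3′ on the gene's strand, and capitals mark matches to the GC box letters GGGCGG on either strand, where overlapping matches join. *Sema6d* lies on the plus strand at chr3:132337106-132337405 and *Sema3d* on the minus strand at chr4:23460922-23461221.
Sema6d: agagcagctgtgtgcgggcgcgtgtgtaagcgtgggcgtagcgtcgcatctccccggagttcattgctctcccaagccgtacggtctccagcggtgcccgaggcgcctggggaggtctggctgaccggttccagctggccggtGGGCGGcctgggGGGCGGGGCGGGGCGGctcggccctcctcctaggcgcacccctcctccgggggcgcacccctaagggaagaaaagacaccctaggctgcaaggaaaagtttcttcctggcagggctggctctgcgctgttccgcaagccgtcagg
Sema3d: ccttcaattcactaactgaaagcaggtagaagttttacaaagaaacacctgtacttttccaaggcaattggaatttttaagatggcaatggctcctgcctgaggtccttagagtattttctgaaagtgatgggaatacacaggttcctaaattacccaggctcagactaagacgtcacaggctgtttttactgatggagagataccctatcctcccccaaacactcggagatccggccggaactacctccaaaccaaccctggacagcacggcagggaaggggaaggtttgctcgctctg
The *Sema6d* window held 4 matches and 69% G or C, and the *Sema3d* window held none and 47.3%. GGGCGG occurs in 33.1% of all promoters of the table and in 57.5% of those of genes measured on the array. The letters CCAAT, searched on both strands, occur in the *Sema3d* window and in 37.5% of all promoters, and TATAAA in neither window and in 14.2% of all promoters. Such matches describe the letters of these windows only.

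The other membrane semaphorin genes that passed were *Sema4d*, *Sema4a* and *Sema6b*. *Sema4d*, which encodes a ligand of plexin B1, read 1.40, 1.08 and 1.41 in regenerating axons and 3.65, 4.83 and 4.46 in neurons, against 0.816 to 1.11 (median 1.0) in uninjured axons (2.10 ± 0.22, adjusted p = 6.95e-05). *Sema4a* read 1.49, 1.38 and 1.24 in regenerating axons and 1.69, 1.58 and 1.98 in neurons, against 0.895 to 1.17 (median 1.0) in uninjured axons. All 3 arrays of both groups lay above the uninjured arrays, with differences of 0.45 ± 0.19 (adjusted p = 0.346) and 0.80 ± 0.21 (adjusted p = 0.00831). *Sema6b* (0.57 ± 0.21, adjusted p = 0.0411) passed narrowly and no longer did in 8 of 9 fits that each left out 1 array. *Sema6c* was the lowest ligand of the system in neurons, at 0.969, 1.08 and 0.979 in regenerating axons and 0.910, 0.845 and 0.907 in neurons, against 0.967 to 1.08 (median 0.990) in uninjured axons (-0.17 ± 0.16, adjusted p = 0.366). The ligand genes *Sema4b* (0.19 ± 0.20), *Sema4f* (0.61 ± 0.28), *Sema4g* (0.54 ± 0.24) and *Sema5a* (0.29 ± 0.17) did not pass in neurons.

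Plexins are the signalling receptors of semaphorins, and 4 of 8 plexin genes were higher in neurons. Beside *Plxnc1* these were *Plxna4* (1.07 ± 0.26, adjusted p = 0.00586), *Plxnb2* (0.92 ± 0.21, adjusted p = 0.00454) and *Plxna3* (0.60 ± 0.19, adjusted p = 0.0207). *Plxnb2*, whose product binds class 4 semaphorins, read 1.23, 1.21 and 1.41 in regenerating axons and 2.06, 1.55 and 2.11 in neurons, against 0.896 to 1.05 (median 1.0) in uninjured axons. Both groups lay above the uninjured arrays, although the difference for regenerating axons (0.35 ± 0.16) missed the threshold (adjusted p = 0.402). *Plxna1* had the lowest value, at 1.07, 0.988 and 1.04 in regenerating axons and 0.739, 0.864 and 0.811 in neurons, against 0.924 to 1.04 (median 0.994) in uninjured axons (-0.32 ± 0.17, adjusted p = 0.129). *Plxna2* (0.48 ± 0.22), *Plxnb1* (0.21 ± 0.15) and *Plxnd1* (0.36 ± 0.20) did not pass in neurons.

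In the ephrin-A system, 3 Eph receptor genes were higher in neurons, and 2 receptor genes and 1 ligand gene were lower. *Epha4* encodes a receptor for ephrins of both classes. It read 0.806, 0.859 and 0.701 in regenerating axons and 3.61, 2.67 and 4.08 in neurons, against 0.893 to 1.11 (median 0.968) in uninjured axons. The 3 groups did not overlap, with neurons highest and regenerating axons lowest. The excess in neurons was 3.40-fold (1.77 ± 0.23, adjusted p = 0.000244), and the difference of regenerating from uninjured axons was -0.35 ± 0.17 (adjusted p = 0.456). *Epha5*, a receptor gene known for its part in topographic maps, had the same order. It read 0.558, 0.578 and 0.755 in regenerating axons and 3.45, 2.10 and 5.22 in neurons, against 0.909 to 1.17 (median 1.0) in uninjured axons. The excess in neurons was 3.36-fold (1.75 ± 0.39, adjusted p = 0.00424). *Epha3*, which was also higher in neurons (0.82 ± 0.22, adjusted p = 0.0102), read 1.37, 1.46 and 1.19 in regenerating axons and 1.75, 1.51 and 2.07 in neurons, against 0.917 to 1.25 (median 1.02) in uninjured axons.

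*Epha6* and *Epha2* ran the other way. *Epha6* read 1.27, 1.84 and 1.24 in regenerating axons and 0.512, 0.530 and 0.423 in neurons, against 0.876 to 1.13 (median 1.0) in uninjured axons. Regenerating arrays were all above and neuron arrays all below the uninjured arrays. The difference for neurons was -1.04 ± 0.20 (adjusted p = 0.00201), and that for regenerating axons was 0.51 ± 0.24 (adjusted p = 0.424). *Epha2*, a receptor gene best known from epithelial cells, read 0.933, 1.12 and 0.916 in regenerating axons and 0.430, 0.518 and 0.400 in neurons, against 0.894 to 1.27 (median 1.0) in uninjured axons (neurons minus uninjured -1.16 ± 0.23, adjusted p = 0.00224). This was the lowest of the 59 guidance genes in neurons, while regenerating and uninjured axons overlapped. The ligand gene *Efna1* was also lower in neurons (-0.67 ± 0.18, adjusted p = 0.0102), and *Efna4* (-0.33 ± 0.20) and *Efna5* (-0.30 ± 0.23) did not pass. Nor did the receptor genes *Epha7* (-0.16 ± 0.21), *Epha8* (-0.43 ± 0.23) and *Epha10* (-0.11 ± 0.27).

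Of the ephrin-B system, the ligand gene *Efnb3* had the second largest excess of the 59 genes in neurons. Ephrin-B3 is known in mice as a midline barrier for corticospinal axons. Its gene read 0.724, 0.783 and 0.800 in regenerating axons and 13.2, 10.5 and 15.1 in neurons, against 0.825 to 1.25 (median 1.0) in uninjured axons. Neurons were far above, at 12.8-fold (3.68 ± 0.26, adjusted p = 9.17e-06), and regenerating arrays were all just below the uninjured range (-0.38 ± 0.21, adjusted p = 0.537). The other ligand gene, *Efnb1*, did not pass in neurons (0.30 ± 0.20, adjusted p = 0.216). Among the receptor genes, *Ephb1* read 0.974, 0.976 and 1.03 in regenerating axons and 1.53, 1.13 and 1.40 in neurons, against 0.848 to 1.02 (median 1.0) in uninjured axons (0.43 ± 0.20, adjusted p = 0.0954).

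*Ephb3* and *Ephb4* were lower in neurons. *Ephb4*, a receptor gene known from veins, read 0.775, 1.17 and 0.998 in regenerating axons and 0.439, 0.501 and 0.556 in neurons, against 0.631 to 1.29 (median 1.0) in uninjured axons (-1.01 ± 0.33, adjusted p = 0.0252). *Ephb3* read 0.638, 0.665 and 1.01 in regenerating axons and 0.611, 0.514 and 0.588 in neurons, against 0.813 to 1.13 (median 1.0) in uninjured axons (-0.81 ± 0.20, adjusted p = 0.00720). For *Ephb3*, 2 of 3 regenerating arrays were also below the uninjured range, with a difference of -0.41 ± 0.26 (adjusted p = 0.618). No ephrin-B receptor gene passed as higher in neurons, and *Ephb6*, whose product lacks kinase activity, had a difference of -0.13 ± 0.18 (adjusted p = 0.530).

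Among netrins and their receptors, 2 of 7 genes were higher and 2 lower in neurons. *Ntn1*, the gene of the ligand netrin 1, read 0.840, 0.749 and 0.820 in regenerating axons and 0.992, 0.856 and 0.881 in neurons, against 0.932 to 1.12 (median 0.994) in uninjured axons. Regenerating arrays were all below the uninjured range and neuron arrays overlapped it, with differences of -0.32 ± 0.15 (adjusted p = 0.441) and -0.14 ± 0.17 (adjusted p = 0.492). The probe sets of *Ntn1* differed in sign in both comparisons, so these values average opposite ones. *Dcc*, the gene of the attractive netrin receptor, read 1.31, 1.46 and 1.07 in regenerating axons and 0.757, 0.780 and 0.865 in neurons, against 0.899 to 1.04 (median 1.0) in uninjured axons. Regenerating arrays lay above and neuron arrays below all uninjured arrays, yet neither difference passed (0.34 ± 0.19, adjusted p = 0.523, and -0.32 ± 0.17, adjusted p = 0.121). *Neo1* encodes neogenin, a relative of DCC that also binds repulsive guidance molecules. It read 1.31, 0.902 and 0.897 in regenerating axons and 1.84, 1.72 and 2.21 in neurons, against 0.912 to 1.32 (median 0.994) in uninjured axons (0.93 ± 0.25, adjusted p = 0.0104). Its probe sets at 1.40 ± 0.32 and 1.90 ± 0.19 passed in neurons. The other (-0.50 ± 0.52) did not, and it read 2.15 and 1.85 in uninjured arrays 1 and 4. In the probe set at 1.90, all regenerating arrays lay above all measured uninjured arrays, but this difference (0.51 ± 0.19) did not pass.

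The genes of the repulsive UNC5 receptors did not share a direction. *Unc5a* read 0.925, 0.703 and 0.950 in regenerating axons and 1.67, 1.51 and 2.82 in neurons, against 0.843 to 1.29 (median 1.0) in uninjured axons (0.94 ± 0.37, adjusted p = 0.0477). *Unc5b* read 1.05, 1.11 and 1.38 in regenerating axons and 0.717, 0.576 and 0.717 in neurons, against 0.828 to 1.10 (median 1.0) in uninjured axons (-0.59 ± 0.22, adjusted p = 0.0459). Each of these calls was lost in 6 of 9 fits that left out 1 array. *Unc5c* had the largest difference of the system in regenerating axons, where it read 0.863, 0.733 and 0.762, with 0.936, 1.22 and 0.854 in neurons, against 0.821 to 1.14 (median 0.995) in uninjured axons. Neither *Unc5c* difference passed (-0.35 ± 0.20, adjusted p = 0.562, and -0.01 ± 0.25, adjusted p = 0.969). *Ntn5*, a less studied netrin gene, read 0.799, 1.26 and 0.956 in regenerating axons and 0.549, 0.521 and 0.710 in neurons, against 0.946 to 1.47 (median 1.0) in uninjured axons (-0.77 ± 0.29, adjusted p = 0.0450). Its call was lost in 5 of the 9 fits.

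Of slits and their receptors, *Robo2* and *Slit1* were higher in neurons and *Robo3* was lower. *Slit1*, the gene of a secreted repellent made mainly in the nervous system, read 1.06, 0.924 and 0.752 in regenerating axons and 1.53, 1.82 and 2.07 in neurons, against 0.707 to 1.23 (median 1.0) in uninjured axons. The neuron arrays stood above the others (0.84 ± 0.32, adjusted p = 0.0456), but the call was lost in 4 of 9 fits that left out 1 array. *Slit3* read 0.952, 0.943 and 0.752 in regenerating axons and 1.25, 0.921 and 1.12 in neurons, against 0.809 to 1.28 (median 1.0) in uninjured axons (0.12 ± 0.26, adjusted p = 0.689). *Slit2* read 0.980, 0.844 and 0.848 in regenerating axons and 1.09, 1.09 and 1.28 in neurons, against 0.862 to 1.21 (median 0.983) in uninjured axons (0.20 ± 0.22, adjusted p = 0.448). For both genes each group overlapped the uninjured arrays in the gene value. The value of *Slit2* averages opposite probe sets, at -0.76 ± 0.19, 0.42 ± 0.30 and 0.95 ± 0.61 in neurons. In the probe set at -0.76, which passed as lower in neurons (adjusted p = 0.00771), both groups lay below all measured uninjured arrays. By gene value, the regenerating arrays overlapped the neuron arrays for *Slit3* and lay below them for *Slit2* (regenerating minus neurons -0.37 ± 0.14, adjusted p = 0.0427). The *Slit2* call was lost in 4 of 6 fits that left out 1 array.

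*Robo2* and *Robo1* encode the main slit receptors of forebrain axons. *Robo2* read 0.975, 0.900 and 1.05 in regenerating axons and 2.17, 1.95 and 2.77 in neurons, against 0.963 to 1.75 (median 1.01) in uninjured axons, a 2.27-fold excess in neurons (1.18 ± 0.32, adjusted p = 0.0106). Of its 3 probe sets only 1 passed in neurons (3.05 ± 0.75), and that one also read 5.13 in uninjured array 4. The others had differences of 0.09 ± 0.27 and 0.41 ± 0.31. *Robo1* read 1.03, 0.964 and 0.798 in regenerating axons and 1.20, 1.20 and 1.74 in neurons, against 0.887 to 1.12 (median 1.0) in uninjured axons. All neuron arrays of *Robo1* were above the uninjured range, but the difference of 0.44 ± 0.25 did not pass (adjusted p = 0.151). *Robo3*, whose product is known from commissural axons, read 0.887, 0.846 and 0.915 in regenerating axons and 0.605, 0.654 and 0.519 in neurons, against 0.785 to 1.31 (median 1.0) in uninjured axons (-0.76 ± 0.27, adjusted p = 0.0325). The uninjured range of *Robo3* took in all regenerating arrays.

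*Rtn4* encodes Nogo, and its receptor gene is *Rtn4r*. *Rtn4* read 1.07, 1.02 and 1.03 in regenerating axons and 48.0, 29.2 and 56.4 in neurons, against 0.794 to 1.39 (median 0.968) in uninjured axons. Neuron array 2 was the lowest of the neuron arrays and still far above every axon array. The gene values of the regenerating arrays lay inside the uninjured range, but they average opposite probe sets. These had differences from uninjured axons of 0.57 ± 0.22 and -0.45 ± 0.48, and neither passed. In the probe set at 0.57, all regenerating arrays lay above all measured uninjured arrays. The excess in neurons was 42.9-fold (5.42 ± 0.38, adjusted p = 9.17e-06), and the difference of regenerating from uninjured axons was 0.06 ± 0.27 (adjusted p = 0.972). *Rtn4r* read 1.01, 0.948 and 1.02 in regenerating axons and 1.88, 1.43 and 2.33 in neurons, against 0.888 to 1.07 (median 0.993) in uninjured axons (0.88 ± 0.25, adjusted p = 0.0137). Both genes of this system thus passed as higher in neurons, *Rtn4r* by 1.84-fold.

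Of the 59 guidance genes, 27 had several probe sets, and these often disagreed. In 14 of the 27 the probe sets of a gene differed in sign between neurons and uninjured axons, in 10 of these by at least 1 on the log2 scale. These 10 genes were *Epha3*, *Epha4*, *Epha7*, *Neo1*, *Plxna1*, *Plxnb1*, *Sema3f*, *Sema5a*, *Sema6a* and *Slit2*, and the standard errors above do not cover such differences. The median gap between the lowest and highest probe set of a gene was 1.03. *Epha4* had the widest gap, with 4 probe sets between -0.43 and 4.28, of which 3 passed as higher in neurons. Its 2 most extreme probe sets read 20.9, 14.5 and 24.3 against 0.776, 0.712 and 0.747 in the same 3 neuron arrays.

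Probe sets of 2 genes passed in both directions. *Sema6a*, the gene of a transmembrane ligand of A-type plexins, had 5 probe sets between -0.85 and 2.16, of which 2 passed as higher and 2 as lower in neurons, so its gene value of 0.43 ± 0.21 (adjusted p = 0.0982) averaged opposite values. *Plxna1* had 1 probe set higher (0.90 ± 0.28) and 2 lower (-0.91 ± 0.30 and -0.94 ± 0.21). *Rtn4* had both probe sets higher, at 4.35 ± 0.32 and 6.49 ± 0.57, and *Nrp1* likewise, between 2.45 and 3.25. Between regenerating and uninjured axons, however, the probe sets within each of these 2 genes differed in sign.

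**Figure D2:**
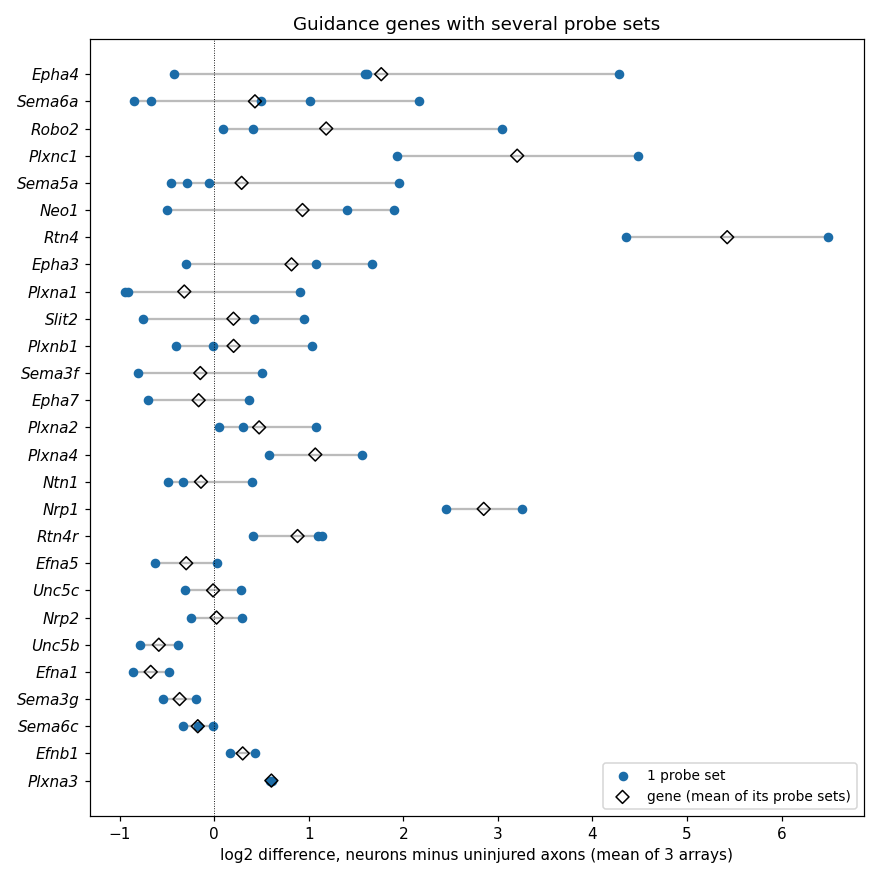
Log2 difference between neurons and uninjured axons for each probe set (filled circles) of the 27 guidance genes with several probe sets, with the gene value as an open diamond and genes ordered from the widest gap at the top. *Epha4* spans -0.43 to 4.28, and the probe sets of *Rtn4*, *Plxnc1* and *Nrp1* all lie to the right of 0.

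Between regenerating and uninjured axons, none of the 59 guidance genes passed the test in limma, nor did any of the 63 (against 0.0352% of all genes higher and 0.689% lower). At an unadjusted p under 0.05 there were 2 guidance genes higher and 1 lower of 59, against 522 and 1247 of all 14217 genes. The median difference of the guidance genes was 0.02, like that of all genes. No guidance gene differed by 2-fold, against 761 of all 14217 genes. The median SE of 0.21 sets how small a difference could be seen. With no error assigned to the reference, 8 guidance genes passed as higher (13.6%, against 11.2% of all genes) and 6 as lower (10.2%, against 14.0% of all genes), which is near the background.

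The order of the differences is given as a description. *Epha5* had the lowest value (-0.68 ± 0.21, adjusted p = 0.178, unadjusted p = 0.00944), with all 3 regenerating arrays below the uninjured range. *Sema3c* had the highest (0.71 ± 0.52, adjusted p = 0.691) with a large error, followed by *Sema3e* (0.60 ± 0.24, adjusted p = 0.310). All 3 regenerating arrays lay above the 6 measured uninjured arrays for *Dcc*, *Epha6*, *Plxnb1*, *Plxnb2*, *Sema3e* and *Sema4a*, which is 10.2% of guidance genes against 10.3% of all genes. They lay below them for *Efnb3*, *Epha4*, *Epha5*, *Ntn1* and *Sema3g*, 8.47% against 12.5% of all genes. These shares do not exceed those of all genes. Probe sets of a gene could differ in sign in this comparison too. Those of *Ntn1* had differences of -0.42, -0.97 and 0.44, and those of *Plxnb1* 0.38, -0.25 and 0.27. None of these probe sets passed. All 6 genes of the slit and Robo system had values below 0 in regenerating axons, between -0.19 and -0.04, each smaller than its own SE.

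**Figure D3:**
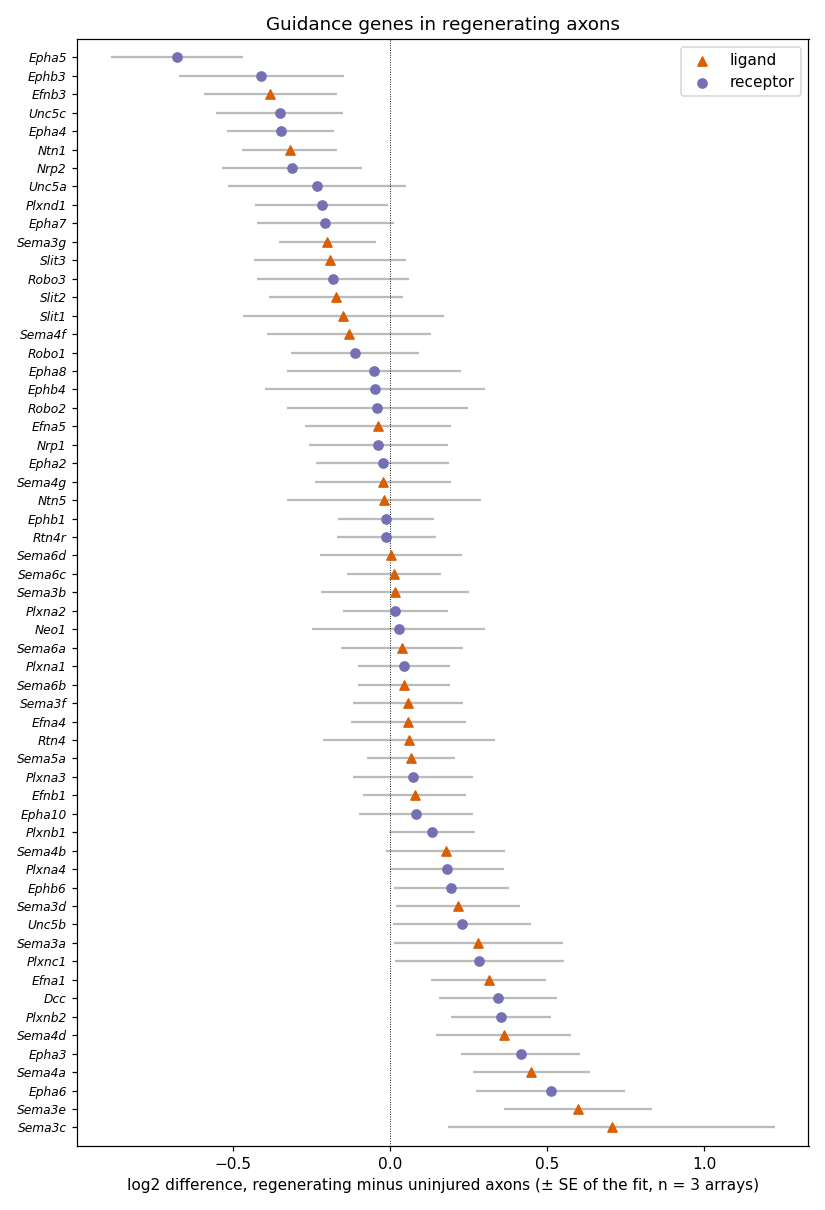
Log2 difference between regenerating and uninjured axons of 59 guidance genes, with ligands as triangles and receptors as circles. Bars show the SE of the limma fit for the mean of 3 regenerating arrays. This SE also draws on the spread of the 6 measured uninjured arrays and includes the assigned error of the reference. Values run from -0.68 for *Epha5* to 0.71 for *Sema3c*, and none passed the test.

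The comparison of regenerating axons with neurons needs no error for the reference, provided both were divided by the same one, which the labels do not state. It shares the neuron and the regenerating arrays with the comparisons above. Of the 63 genes, 12 were higher in regenerating axons (19.0%, against 31.3% of all genes) and 29 lower (46.0%, against 44.2% of all genes). Of the 59 guidance genes, 11 were higher and 26 lower. With each array shifted to a median of 0, the split became 18 higher (30.5%, against 37.1% of all genes) and 16 lower (27.1%, against 39.5% of all genes).

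In the membrane semaphorin and plexin system, 12 of 18 genes were lower in regenerating axons and 1, *Plxna1*, was higher. In the 6 fits that each left out 1 array, the calls of *Plxna1* and *Plxna2* were lost in 5, those of *Sema6a*, *Sema6b* and *Plxnb2* in 4, that of *Plxnd1* in 3, that of *Plxna3* in 2 and that of *Sema4g* in 1. With each array shifted to a median of 0, 5 of the 12 passed as lower, and 2 genes of the system, *Plxna1* among them, as higher. The log2 difference of regenerating axons from neurons was -5.36 ± 0.24 for *Rtn4* (adjusted p = 1.53e-06), -4.06 ± 0.17 for *Efnb3* (adjusted p = 1.13e-06) and -3.54 ± 0.17 for *Sema6d* (adjusted p = 1.96e-06). In the ephrin-A system 4 genes were higher in regenerating axons and 2 lower. *Epha6* had the largest excess (1.55 ± 0.19, adjusted p = 0.000222), followed by *Epha2* (1.14 ± 0.16, adjusted p = 0.000387) and *Efna1* (0.99 ± 0.14, adjusted p = 0.000358). In the netrin system *Dcc* (0.67 ± 0.16, adjusted p = 0.00597), *Unc5b* (0.81 ± 0.17, adjusted p = 0.00276) and *Ntn5* (0.75 ± 0.21, adjusted p = 0.0122) were higher, and *Neo1* (-0.91 ± 0.19) and *Unc5a* (-1.18 ± 0.26) were lower. For *Dcc* the 3 regenerating arrays lay above the uninjured and the neuron arrays below them, and this direct difference passed where neither difference from uninjured axons did.

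Other genes of the pathway were taken from hand-written lists of co-receptors and further ligands, and of intracellular effectors. The lists were written with earlier results of these data known, so their shares are given as a description. Of 36 measured co-receptors and ligands, 25 were higher in neurons than in uninjured axons (69.4%, against 36.9% of all genes) and 2 lower (5.56%, against 23.0%). Their median difference was 1.27, against 0.22 over all genes. They include *L1cam* (2.94 ± 0.22), an adhesion molecule gene that acts with neuropilin 1, *Rgma* (3.12 ± 0.40), a ligand of neogenin, and *Lingo1* (1.53 ± 0.23), a partner of the Nogo receptor. The 2 lower genes were *Hjv* (-1.22 ± 0.21), a relative of *Rgma*, and *Kdr* (-0.74 ± 0.21), a vascular growth factor receptor gene. Of 51 measured effectors, 31 were higher in neurons (60.8%) and 8 lower (15.7%), with a median of 0.91. *Rac1* (5.81 ± 0.48), a small GTPase gene, and *Dpysl2* (4.60 ± 0.34), the gene of a collapsin response mediator, were among the higher. Between regenerating and uninjured axons no co-receptor or ligand gene passed, and among effectors *Crmp1*, another collapsin response mediator gene, was lower (log2 -1.45, adjusted p = 0.0430). *Dpysl2* read 0.267, 0.0823 and 0.0987 in regenerating axons and 24.0, 23.5 and 25.3 in neurons, but its difference of regenerating from uninjured axons, -2.95 ± 0.58, had an adjusted p of 0.0573.

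The 4 genes that share only the letters of the rule also differed between neurons and uninjured axons. *Slitrk1* (1.29 ± 0.18) and *Slitrk3* (1.24 ± 0.41), genes of synaptic adhesion proteins, and *Unc50* (2.60 ± 0.29) were higher in neurons. *Unc5cl* was lower, at 0.971, 1.02 and 1.29 in regenerating axons and 0.340, 0.393 and 0.273 in neurons, against 0.869 to 1.13 (median 1.0) in uninjured axons (-1.59 ± 0.23, adjusted p = 0.000406). None of the 4 passed between regenerating and uninjured axons.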

How the data were processed

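Expression was measured on 13 arrays. Per the labels' protocols, each array held pooled material of 3 platforms, whose RNA went through 2 amplification rounds. RMA is named in the submitters' processing notes, with no version. The deposited values are linear ratios for 31099 probe sets. In 100% of rows the median over uninjured arrays 1 to 3 is 1, and likewise over arrays 4 to 6 (tolerance 0.0001), so differences between these sets were removed before deposit.

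Symbols came from the platform annotation: 20826 probe sets had 1 symbol, 436 several and 9780 none, and all 63 symbols stood unchanged in the RefSeq table of GRCr8. Log2 ratios were averaged over the probe sets of a gene. Tests used limma 3.58.1 (lmFit and eBayes, R 4.3.3), with Benjamini-Hochberg adjustment over 14217 genes. Uninjured arrays 1 to 6 gave only spread, and array 7 stood for the reference with the error of 1 array. The 2-group fit of regenerating axons and neurons used 3 arrays each. The fits were tested on simulated data. These were built with the same assumption about the reference as the fits, so they cannot check that assumption.

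The members, systems and lists were chosen with earlier results of these data known. Values in every array were given, per system, for the 2 highest and 2 lowest members in neurons, for the member furthest from 0 in regenerating axons, for *Nrp1*, *Dcc*, *Neo1*, *Robo1*, *Slit1*, *Ntn1*, *Sema3a*, *Epha4*, *Rtn4* and *Rtn4r*, and for some others. Members whose probe sets differ in sign by 1 or more were also named. Sequences were planned for the 2 members of 1 family furthest apart. That pair, *Efnb3* and *Efna1*, lacks a promoter entry for *Efnb3*, so the furthest semaphorin pair was printed. Promoter entries were found for 44 of 59 guidance genes. Alternatives covered the joining and choice of probe sets, the scale, a floor, the error of the reference, a replicate block and leaving out each array.

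Replicate numbers were checked for pairing through the correlation of deviations from the group means across genes. Same-numbered regenerating and neuron arrays gave r of 0.172, 0.179 and -0.115, so the numbers were not used as pairs.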

Additional observations from a re-analysis of the deposited data

Results flagged for a closer look

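In 6 of the 63 genes, 1 uninjured array stood apart from the other 5 measured ones by the gap to its nearest neighbour relative to the whole range. Chance flags about 1 in 20 such groups, and each set of 3 arrays is centred on its own median, which draws values to 1. *Robo2* read 1.75 in uninjured array 4, *Sema6a* 1.32 in array 4, *Epha3* 1.25 in array 5 and *Plxna4* 1.21 in array 1, each the highest of 6. *Ephb1* read 0.848 in array 1 and *Dcc* 0.899 in array 2, each the lowest of 6.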

How the results depend on the processing

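All counts here are of the 63 genes. With no error assigned to the reference, 35 genes were higher and 16 lower in neurons than in uninjured axons, and 8 were higher and 8 lower in regenerating axons. Against the 6 measured uninjured arrays these counts were 35, 16, 7 and 5. With each array shifted to a median of 0, 19 genes were higher and 15 lower in neurons, and 19 were higher and 19 lower in regenerating axons relative to neurons. Leaving out 1 array at a time gave 20 to 24 genes higher and 5 to 9 lower in neurons, and 0 to 0 between regenerating and uninjured axons. Between regenerating axons and neurons it gave 10 to 13 higher and 20 to 32 lower. The count of 5 came without neuron array 1. Single arrays also ended calls for neurons, with adjusted p between 0.0503 and 0.0970 where they were lost. *Sema6b* missed the threshold without any of the arrays but neuron array 2, *Unc5a* without neuron arrays 1 or 3 or uninjured arrays 1, 2, 3 or 5, and *Unc5b* without any neuron array or uninjured arrays 1, 2 or 5. *Ntn5* missed it without neuron arrays 1 or 2 or uninjured arrays 3, 4 or 6, *Slit1* without neuron arrays 2 or 3 or uninjured arrays 3 or 5, *Robo3* without neuron arrays 1 or 3, and *Ephb4* and *Slitrk3* without neuron array 1. The shift to a median of 0 ended the calls of *Sema6b*, *Plxna3*, *Unc5a* and *Slit1*. Probe sets unique to a transcript gave 21 and 9 genes for neurons, with *Rtn4* and *Slit1* unmeasured, and single probe sets gave 23 and 11. Raising ratios under 0.1 to 0.1 moved no count. Leaving out *Unc50* as well as the other genes that share only letters was chosen after seeing the data and gave the 20 and 8 reported above. With the replicate number as a block, 27 genes were higher and 11 lower in neurons, none passed between regenerating and uninjured axons, and 10 were higher and 23 lower in regenerating axons relative to neurons. No gene value changed sign and passed in the other direction under any of these settings. Single probe sets could do so: *Slit2*, *Plxna1* and *Sema6a* each had a probe set that passed in neurons against the sign of the gene value. The number of arrays, the unmeasured error of the reference and the lack of signal levels limit what could be seen.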

Other observations

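The letters GGGCGG occurred in 26 of 45 promoter entries of guidance genes (57.8%), which cover 44 genes because *Robo1* has 2 entries, against 57.5% of entries of genes measured on the array. Among guidance genes lower in neurons than in uninjured axons, 8 of 8 entries held them, against 41.8% of entries of all genes that were lower. Among guidance genes higher in neurons, 10 of 14 held them, against 67.2% of all such entries, and among those that passed in neither direction 8 of 23 did, against 56.9%. TATAAA occurred in 0 of the 45 entries, against 8.45% of entries of genes on the array. These shares describe letters on either strand and were not tested.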
